A study of Mus musculus with 6 samples.

Results

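The inhibitor of DNA binding (Id) genes Id1, Id2, Id3 and Id4 and the E protein genes Tcf3, Tcf4 and Tcf12 were examined in mouse splenic CD4 T cells whose activation used PMA, a phorbol ester, and ionomycin, a calcium ionophore. The cells were activated with or without VIP, the neuropeptide vasoactive intestinal peptide, which raises cAMP through its receptors. Members were chosen as the non-control probes that the array files name by one of the 7 gene symbols, which gave 15 of the 41174 non-control probes, and 14 of the 15 passed the filter on dim spots. The array carried 27975 gene symbols in all. Each of 6 dual-colour arrays set the RNA of VIP-treated cells against the RNA of untreated cells, according to the labels of one biological replicate. VIP was in Cy5 on replicates 1, 3 and 5 and in Cy3 on replicates 2, 4 and 6. Both groups were C57BL/6J mice, males and females of 6 to 32 weeks of age, both were activated, and 5 to 10 spleens were pooled for a sample. Magnetic beads were used to take the CD4 cells. The sources used here give neither the dose nor the duration of VIP, nor the sex of the mice in a pool. The comparison asked how VIP changes the transcripts of activated CD4 T cells.

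E proteins are basic helix-loop-helix transcription factors that dimerise and bind the short DNA motif called the E box. Id proteins have the helix-loop-helix but no basic DNA-binding region, so an E protein that pairs with an Id protein cannot bind DNA. In T cells the balance of both is known for guiding thymocyte selection, the maintenance of the naive state and the choice between effector, memory and follicular helper fates, with Id2 and Id3 as the main inhibitors.

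With VIP the transcripts of 2 of the 4 Id genes were higher, and those of the E proteins were not called in either direction. Id2 rose 1.49-fold, a log2 ratio of 0.57 ± 0.049, and Id1 rose 1.33-fold, a log2 ratio of 0.41 ± 0.072 (SE over 6 arrays each). By probe, 4 of the 6 tested Id probes were called higher, 0 lower and 2 not at all, whereas 0 of the 8 tested E protein probes were called (limma, Benjamini-Hochberg adjusted p under 0.05). Over all 33233 probes tested, 1.61% were called higher and 0.536% lower, 2.15% in either direction. Counted as genes by their brightest tested probe, 1.6% of 22868 were called higher and 0.547% lower. The median log2 ratio was 0.40 over the 6 Id probes and -0.03 over the 8 E protein probes, beside 0 over all probes tested.

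The symbol Tcf3 stands for different genes on this array and in current annotation. Both probes that the files call Tcf3 lie on chromosome 6 and carry an accession that RefSeq now assigns to Tcf7l1, a high mobility group protein of the Wnt pathway and no E protein. The E protein gene Tcf3, which encodes E2A, was found through its accession under the older name Tcfe2a, with 2 probes on chromosome 10. E protein values below use these Tcfe2a probes, and the Tcf7l1 probes are given apart. After this correction there were 7 Id probes, of which 6 were tested, and 8 E protein probes, of which 8 were tested.

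The probe sequences show what was measured. The dimmer Id2 probe, the Id3 probe and the dimmer Tcf3 (Tcfe2a) probe are shown whole, because each has a reading frame without an internal stop and they represent the inhibitor that rose, an inhibitor that was not called and an E protein. Capitals in the Id2 probe mark a stop codon at the very end of its open frame.
Id2: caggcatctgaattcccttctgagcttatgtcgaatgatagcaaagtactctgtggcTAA
Id3: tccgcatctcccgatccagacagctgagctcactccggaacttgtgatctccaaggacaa
Tcf3: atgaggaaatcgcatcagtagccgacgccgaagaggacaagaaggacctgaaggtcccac

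Of the brighter Id2 probe and of the Id1 probes, 30 bases are shown, since they carried the calls. The Id1 stretch is common to both Id1 probes, which overlap by 50 bases and so are no independent measurements. The stretch of the brighter Tcf7l1 probe shows the sequence that the files label Tcf3.
Id2, brighter probe: tgagtgaaccttgtggactctttaattaga
Id1: tttgtattgtatattacaatgatcactggc
Tcf7l1: cacaaaggaagcattattggtcaatatttg

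On mm9, the build of the files, the brighter Id2 probe lies at chr12:25778904-25778963 and the dimmer one spans chr12:25780183-25780530, both on the minus strand. The Id1 probes lie at chr2:152563036-152563095 and chr2:152563046-152563105 and the Id3 probe spans chr4:135700075-135700249, on the plus strand. The Tcf3 (Tcfe2a) probes lie at chr10:79872639-79872698 and chr10:79875963-79876022, and the brightest Tcf12 probe at chr9:71692310-71692369, on the minus strand. The dimmer Id2 probe and the Id3 probe are 60 bases long but span more genomic bases than that, so their sequences are not contiguous in the genome. Exon and untranslated region annotation on mm9 was not analysed here.

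Promoters of 5 of the 7 genes matched the RefSeq promoter table (GRCm38.p6), and those of Id2 and Id3 are shown because Id2 rose with VIP and Id3 was not called. Each line is the 250 bases before the annotated start. Capitals mark an E box (CANNTG) in Id2, 196 bases before the start, and in Id3 a half-site of the cAMP response element (TGACG, here on the opposite strand), 170 bases before the start.
Id2, chr12:25096093-25096342, minus strand: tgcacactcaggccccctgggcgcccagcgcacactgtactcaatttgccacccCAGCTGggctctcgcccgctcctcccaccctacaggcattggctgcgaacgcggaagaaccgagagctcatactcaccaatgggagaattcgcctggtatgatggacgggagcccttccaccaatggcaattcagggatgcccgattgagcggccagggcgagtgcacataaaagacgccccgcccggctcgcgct
Id3, chr4:136143572-136143821, plus strand: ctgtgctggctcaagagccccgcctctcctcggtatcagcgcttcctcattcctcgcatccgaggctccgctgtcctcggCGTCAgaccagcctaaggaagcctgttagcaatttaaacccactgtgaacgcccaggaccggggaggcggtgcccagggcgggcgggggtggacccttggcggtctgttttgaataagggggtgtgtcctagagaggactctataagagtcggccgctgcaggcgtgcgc

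Both strands were searched in the 250 bases before each start for CANNTG, for the full cAMP response element TGACGTCA and for its half-site TGACG, which the full element contains. Of 32851 RefSeq promoters, 66.2% held CANNTG, 1.55% TGACGTCA and 17.8% TGACG. No member with a sequence held TGACGTCA in this window. Id3 and Id4 held 1 TGACG each, Id2 and Tcf3 held 1 CANNTG each, and of the 3 annotated Tcf12 starts 2 held 1 CANNTG each. Id1 and Tcf4 are named only.

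Before the results, the state of the arrays was checked. The share of spots well above background was 56.9% at the lowest and 99.9% at the highest over arrays and channels, and the precision is limited by the number of arrays. Replicate 5 stood apart: 13.5% of its spots had an outlier flag, against 0.57% to 4.44% on the other arrays, and its measured log2 ratios of VIP over untreated were 4.08 for Ddx3y, 4.18 for Eif2s3y and -3.29 for Xist. On the other arrays these sex-linked transcripts lay between -0.34 and 0.46. The VIP and untreated RNAs of replicate 5 thus differed in sex-linked transcripts. Values without it are given for each tested Id and E protein probe that had a value there and for each called gene of the lists. Over all probes 535 were called higher and 178 lower, so 75% of the calls were higher. The share was 95.1% with median centring, 100% with the scanner software's own log ratio and 64.4% with quantile scaling between arrays and the channels fitted as pairs, over 27716 probes. All 8 CD4 T cell markers, Cd4 and Cd3e among them, were well above background on 6 of 6 arrays in both channels.

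Id2, which restrains E proteins in effector T cells and innate lymphoid cells, showed the largest log2 ratio of the 14 tested Id and E protein probes. On its brighter probe the log2 intensity of VIP-treated cells was 14.57 at the lowest, 14.79 at the median and 15.35 at the highest, against 13.95, 14.17 and 15.01 in untreated cells. The groups overlapped across arrays, while on each array the VIP-treated RNA was the brighter. The log2 ratios after removal of the dye effect were 0.59, 0.60, 0.70, 0.66, 0.43 and 0.46 on replicates 1 to 6, so the lowest 2 were those of replicates 5 and 6, which share a slide. The fitted ratio had a 95% confidence interval of 0.46 to 0.68 (limma adjusted p = 0.000281, higher on 6 of 6 arrays), and it ranked 45 among the 33233 probes tested. Within the 3 slides it was 0.59, 0.68 and 0.44, and with slide as a block 0.57 ± 0.054. Without replicate 5 it was 0.61 (limma adjusted p = 2.37e-05). All p-values here reflect only the spread among arrays, at most 6 for a probe. For them, limma drew the variance of each probe towards that of all probes tested.

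The dimmer Id2 probe gave a smaller ratio. Its log2 intensity was 12.53 at the lowest, 13.18 at the median and 13.47 at the highest in VIP-treated cells, against 12.07, 12.74 and 13.38 in untreated cells. The dye-adjusted log2 ratios were 0.50, 0.43, 0.53, 0.38, 0.16 and 0.38 on replicates 1 to 6, lowest on replicate 5. The fitted log2 ratio was 0.39 ± 0.053 (SE, n = 6 arrays), a 1.31-fold rise with a 95% confidence interval of 0.28 to 0.51 (limma adjusted p = 0.00363). Without replicate 5 it was 0.45 (limma adjusted p = 9.17e-05). The brighter probe exceeded it on 6 of 6 arrays, by 0.18 ± 0.09 log2 units (SD), between 0.08 and 0.28. Both Id2 probes therefore rose, by amounts that differed on every array in one direction.

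For the brighter Id2 probe the call was kept in 18 of 20 other settings, with log2 ratios from 0.54 to 0.67 and limma adjusted p from 6.32e-06 to 1. It was lost with the scanner software's own log ratio (0.57, limma adjusted p = 0.0504) and when both channels were fitted as unpaired samples (0.57, limma adjusted p = 1).

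**Figure D1:**
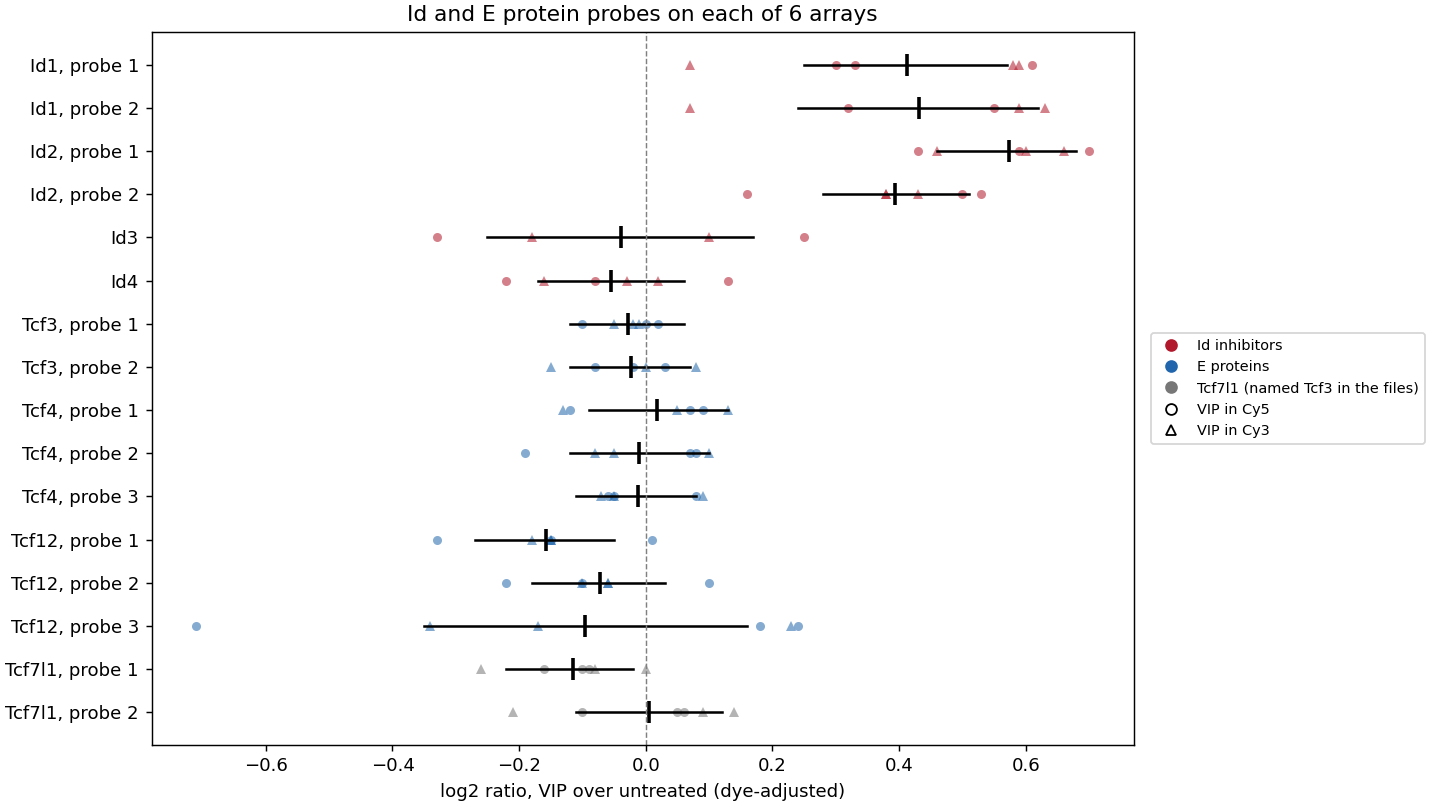
Dye-adjusted log2 ratio of VIP over untreated (horizontal axis) for each tested probe (rows), with 1 coloured point per array, circles where VIP was in Cy5 and triangles where it was in Cy3; black ticks and bars are the limma estimate and its 95% confidence interval. The intervals of the 4 Id1 and Id2 probes lie above 0, those of the other rows span 0 except for the brightest Tcf12 probe (-0.27 to -0.05) and the brightest Tcf7l1 probe (-0.22 to -0.02), whose adjusted p were 0.164 and 0.296.

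Id1, a direct target of bone morphogenetic protein signalling in many cell types, rose with more spread than Id2. On its brighter probe the log2 intensity was 11.35 at the lowest, 11.75 at the median and 12.24 at the highest in VIP-treated cells, against 11.20, 11.41 and 11.50 in untreated cells, and the groups overlapped. The dye-adjusted log2 ratios were 0.30, 0.59, 0.61, 0.07, 0.33 and 0.58 on replicates 1 to 6. Replicate 4 was close to 0, and the other arrays lay at or above 0.30. The fitted log2 ratio was 0.41 ± 0.072 (SE, n = 6 arrays), with a 95% confidence interval of 0.25 to 0.57 (limma adjusted p = 0.0152, higher on 6 of 6 arrays, rank 139 of 33233). Within slides it was 0.45, 0.34 and 0.45, and with slide as a block 0.41 ± 0.046. The second Id1 probe, which shares 50 of its 60 bases with the first and had an outlier flag on replicate 5, gave 0.43 ± 0.083 (SE over 5 arrays, limma adjusted p = 0.0308).

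The Id1 call was lost when any of several single arrays was left out, and also under several processing settings. The log2 ratio stayed between 0.36 and 0.50 over 20 other settings, but the limma adjusted p ranged from 0.0012 to 1 and the call was lost in 8 of them. It was lost without replicate 1 (limma adjusted p = 0.0519), without replicate 2 (0.0774), without replicate 3 (0.0737) and without replicate 6 (0.0778), and kept without replicate 5 (log2 ratio 0.43, limma adjusted p = 0.00591). A background correction (normexp) offset of 0 (limma adjusted p = 0.134) and the scanner software's own log ratio (0.202) lost it too. So did leaving out the dye term (0.107) and fitting both channels as unpaired samples.

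**Figure D2:**
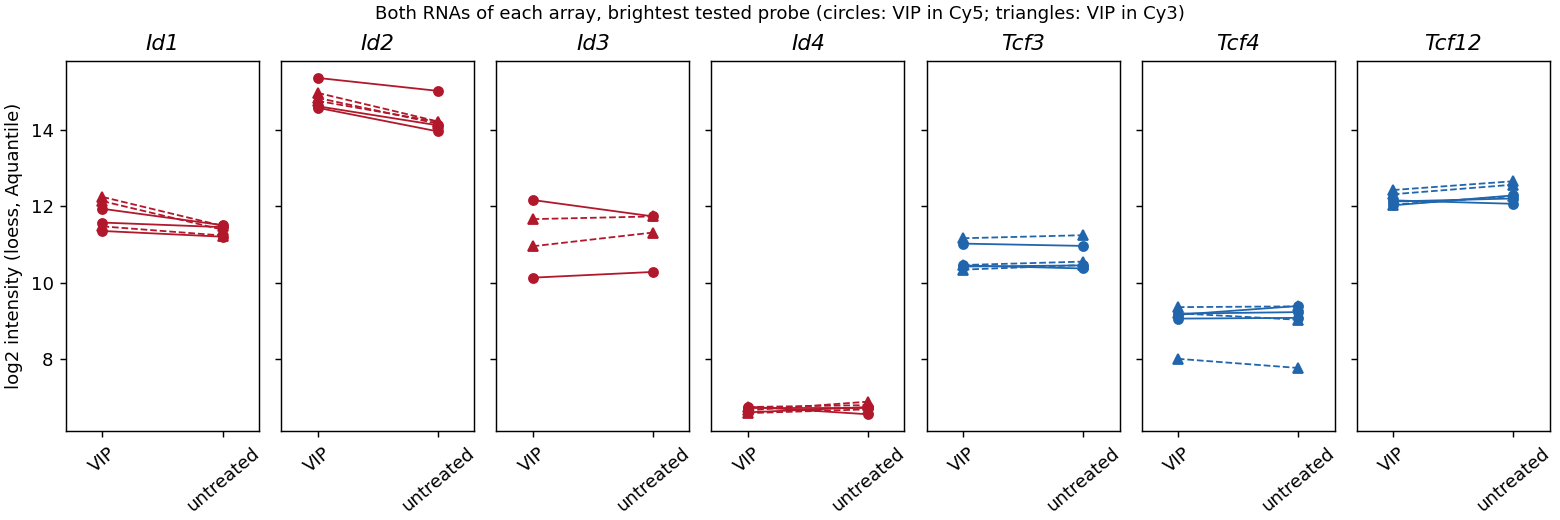
Log2 intensity after loess and Aquantile scaling (vertical axis) of the VIP-treated and the untreated RNA of each array, joined by a line, for the brightest tested probe of each gene; circles and solid lines are arrays with VIP in Cy5, triangles and dashed lines those with VIP in Cy3. Every Id1 and Id2 line is higher at VIP, the lines of Id4, Tcf3 and Tcf4 slope either way from array to array, and levels are not comparable between panels because each is another probe.

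Id3, which restrains E proteins in naive and memory-precursor T cells, had 1 probe and was not called. Its log2 intensity was 10.13 at the lowest, 11.30 at the median and 12.16 at the highest in VIP-treated cells, against 10.28, 11.52 and 11.73 in untreated cells, so the groups overlapped widely. The spots of replicates 1 and 4 had an outlier flag and were left out. The dye-adjusted log2 ratios on the remaining replicates 2, 3, 5 and 6 were -0.18, 0.25, -0.33 and 0.10, with 2 above and 2 below 0. The fitted log2 ratio was -0.04 ± 0.094 (SE, n = 4 arrays), with a 95% confidence interval of -0.25 to 0.17 (limma adjusted p = 0.926). The interval lies below the estimates of both Id2 probes and of both Id1 probes. With the flagged spots kept the ratio was -0.01 ± 0.083, and without replicate 5 it was 0.10.

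Id4, known mainly from neural and germ cells, was near the limit of detection. The probe that was tested was well above background on 3 arrays in VIP-treated cells and on 2 in untreated cells, and passed the filter through the VIP channel alone. The fit gave -0.05 ± 0.052 log2 units (SE over 6 arrays, limma adjusted p = 0.75), with 2 of 6 arrays above 0, and -0.10 without replicate 5. The other Id4 probe was well above background on 2 arrays in each group and was not tested.

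Tcf3 encodes E2A, whose splice forms E12 and E47 are the best studied E proteins of lymphocytes. Its brighter probe had a log2 intensity of 10.34 at the lowest, 10.46 at the median and 11.16 at the highest in VIP-treated cells, against 10.37, 10.50 and 11.24 in untreated cells. The dye-adjusted log2 ratios on replicates 1 to 6 were 0.02, -0.02, -0.10, -0.01, 0.00 and -0.05, all close to 0. The fitted log2 ratio was -0.03 ± 0.04 (SE, n = 6 arrays), with a 95% confidence interval of -0.12 to 0.06 (limma adjusted p = 0.855). The dimmer probe gave -0.02 ± 0.044, with an interval of -0.12 to 0.07. Without replicate 5 the probes gave -0.03 and -0.04.

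Tcf4 encodes E2-2, the E protein that plasmacytoid dendritic cells depend on. Its brightest probe had a log2 intensity of 8.01 at the lowest, 9.18 at the median and 9.36 at the highest in VIP-treated cells, against 7.77, 9.16 and 9.39 in untreated cells. The dye-adjusted ratios of its 3 probes fell on both sides of 0. Their fitted log2 ratios were 0.02, -0.01 and -0.01, and the widest of their 95% confidence intervals ran from -0.12 to 0.10 and from -0.09 to 0.13. The limma adjusted p lay between 0.941 and 0.965. Without replicate 5 the ratios were 0.05, 0.03 and -0.03.

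Tcf12 encodes HEB, the partner of E2A in thymocytes, and had the lowest log2 ratio of the E proteins. On its brightest probe the log2 intensity was 12.02 at the lowest, 12.13 at the median and 12.42 at the highest in VIP-treated cells, against 12.06, 12.27 and 12.65 in untreated cells, and the groups overlapped. The dye-adjusted log2 ratios on replicates 1 to 6 were -0.15, -0.15, -0.33, -0.15, 0.01 and -0.18. Replicate 5 was the one array that was not below 0. The fitted log2 ratio was -0.16 ± 0.049 (SE, n = 6 arrays), with a 95% confidence interval of -0.27 to -0.05 (limma adjusted p = 0.164). Without replicate 5 it was -0.20 and was called lower (limma adjusted p = 0.0358), the single setting of 20 in which an E protein probe was called. The adjusted p over the 20 settings ranged from 0.0358 to 1.

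The other Tcf12 probes gave -0.07 ± 0.048 (limma adjusted p = 0.602) and -0.10 ± 0.12 (limma adjusted p = 0.815). Without replicate 5 the first of these gave -0.12 (limma adjusted p = 0.231). The other had dye-adjusted log2 ratios of -0.71 on replicate 5 and from -0.34 to 0.24 elsewhere. Without replicate 5 its fitted value was 0.06 ± 0.069 (limma adjusted p = 0.773). The 3 probes of Tcf12 thus had -0.20, -0.12 and 0.06 once replicate 5 was left out, the last within its SE of 0.

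Tcf7l1, the gene that the files call Tcf3, had log2 ratios of -0.12 ± 0.045 (SE over 6 arrays, limma adjusted p = 0.296) and 0.01 ± 0.053 (limma adjusted p = 0.983) on its 2 probes. The first of them was above 0 on 0 of 6 arrays.

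The inhibitors were set against the E proteins on each array, as the median over the Id genes minus the median over the 3 E protein genes, each gene by its brightest tested probe. The Id median was over 4 genes on replicates 2, 3, 5 and 6 and over 3 on replicates 1 and 4, where the Id3 spot was left out. On replicates 1 and 4 it was therefore the value of Id1, 0.30 and 0.07, while Id2 had 0.59 and 0.66. The difference was 0.28, 0.35, 0.53, 0.08, 0.23 and 0.33 log2 units on replicates 1 to 6. Its mean was 0.30 ± 0.15 (SD, n = 6 arrays), with 6 of 6 arrays above 0. The Id median averaged 0.25 ± 0.12 and the E protein median -0.05 ± 0.06, so the distance between both came mainly from the Id side. Without replicate 5 the mean difference was 0.32, and with the Tcf7l1 probe in the place of Tcf3 it was 0.35 ± 0.15. With the flagged spots kept, Id3 among them, it was 0.29 ± 0.16. It was 0.51 ± 0.17 when Id4 was left out by a stricter filter. With slide as a block, where Id3 could not be fitted, it was 0.45 ± 0.04. This last SD is over 3 slide averages of 2 arrays each and is not comparable with the others. The score is a description over chosen genes and was not tested.

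The inhibitors did not contribute alike. Id2 exceeded Tcf3 by 0.60 ± 0.13, Tcf4 by 0.56 ± 0.13 and Tcf12 by 0.73 ± 0.20 log2 units (SD, n = 6 arrays). Id1 exceeded Tcf3 by 0.44 ± 0.25, Tcf4 by 0.40 ± 0.24 and Tcf12 by 0.57 ± 0.28. Each of these 6 differences was above 0 on 6 of 6 arrays. The differences of Id3 and Id4 from the E proteins averaged between -0.07 and 0.12, and none of them had the same sign on all arrays.

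**Figure D3:**
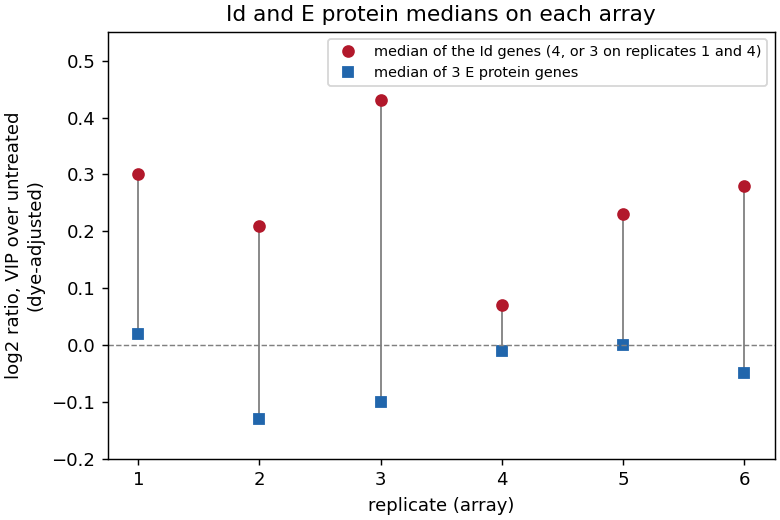
Median dye-adjusted log2 ratio of VIP over untreated (vertical axis) over the Id genes (circles; 4 genes, or 3 on replicates 1 and 4, where Id3 had no value) and over the 3 E protein genes (squares) on each of the 6 arrays (horizontal axis), joined by a grey line. The Id median lies above the E protein median on 6 of 6 arrays, by 0.53 on replicate 3 and by 0.08 on replicate 4. On replicates 1 and 4 the Id median is the value of Id1.

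Id genes are switched on by bone morphogenetic protein and TGF-beta family signals through SMAD proteins, and in T cells Id3 also by EGR factors downstream of the antigen receptor. Of 20 receptors, SMAD and EGR genes, 20 were tested, 0 rose and 1 fell, with a median log2 ratio of -0.01. Over all 22868 genes, 1.6% were called higher and 0.547% lower. Egr2, a zinc finger factor induced by antigen receptor signals, fell, with dye-adjusted log2 ratios between -0.61 and -0.06 and a fitted value of -0.30 ± 0.066 (SE, n = 6 arrays, limma adjusted p = 0.0498). This call was lost without replicate 1, 3, 4 or 6, with limma adjusted p up to 0.213, and kept without replicate 5 (-0.32, limma adjusted p = 0.0238). Egr3 had -0.20 ± 0.047 (limma adjusted p = 0.0695), and without replicate 5 it had -0.22 and was called lower (limma adjusted p = 0.025), while its other probe had -0.06. Egr1 had -0.14 (limma adjusted p = 0.124) and the activin receptor gene Acvr2a 0.13 (limma adjusted p = 0.324), with 3 probes that ran from -0.08 to 0.13. All 3 EGR genes were below 0 on 6 of 6 arrays. The EGR values thus lay below 0 while Id3, with spots on 4 arrays, had an interval that spanned 0.

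E proteins act with other helix-loop-helix factors and with coactivators and corepressors. Of 18 such genes 16 were tested, and Lmo1 and Msc were not. Of the 16 tested, 1 rose and 0 fell, with a median log2 ratio of -0.02, beside 1.6% called higher and 0.547% called lower over all genes. Bhlhe40, a basic helix-loop-helix repressor that supports cytokine production in activated T cells, rose, by 0.36 ± 0.052 log2 units (SE over 5 arrays, limma adjusted p = 0.00753). Its spot on replicate 5 had an outlier flag, so that the value already leaves this array out, and the call was lost without replicate 1 or 3 (limma adjusted p up to 0.0842). The histone acetyltransferase genes Crebbp and Ep300, coactivators of E proteins, had -0.19 ± 0.064 and -0.13 ± 0.055 (limma adjusted p = 0.202 and 0.351), with other probes up to -0.01 and -0.03. Ascl2, a partner of E proteins in follicular helper T cells, had 0.12 ± 0.069 (SE, n = 3 arrays, limma adjusted p = 0.549).

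Of 17 genes known as E protein targets in lymphocytes, 16 were tested and Rag2 was not. Of these 3 rose and 1 fell, with a median log2 ratio of 0.03, beside 1.6% called higher and 0.547% called lower over all 22868 genes. Dntt, the template-independent polymerase of antigen receptor joining, rose by 0.30 ± 0.050 log2 units (SE over 6 arrays, limma adjusted p = 0.0121), although its 3 tested probes ran from 0.10 to 0.32. Socs1 and Socs3, feedback inhibitors of cytokine signalling, had 0.30 ± 0.057 (n = 5 arrays, limma adjusted p = 0.0292) and 0.20 ± 0.041 (n = 6 arrays, limma adjusted p = 0.0341). Notch1, the receptor that commits progenitors to the T lineage, had -0.25 ± 0.049 (SE, n = 6 arrays, limma adjusted p = 0.0292), and -0.13 on its other probe.

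Each of these 4 calls was also lost without some single arrays. With 1 array left out, the log2 ratio ran from 0.25 to 0.33 for Dntt and from 0.25 to 0.32 for Socs1. It ran from 0.18 to 0.22 for Socs3 and from -0.29 to -0.21 for Notch1. Over all probes, the number called higher fell as well without replicate 1, 2, 3, 4 or 6, from 535 to between 243 and 346. Dntt lost its call without replicate 1 or 3 (limma adjusted p up to 0.0643), and Notch1 without replicate 1, 2, 3 or 4 (up to 0.135). Socs1 and Socs3 lost theirs without replicate 1, 2, 3, 4 or 6 (up to 0.178 and 0.143). Without replicate 5 the calls of Dntt, Socs3 and Notch1 were kept, with log2 ratios of 0.32, 0.19 and -0.25. Socs1 had no value on replicate 5, so its log2 ratio of 0.30 already left this array out. Foxo1, a factor of naive T cell survival and homing, had 0.21 (limma adjusted p = 0.0665) and Il7r, the interleukin-7 receptor chain, 0.22 (limma adjusted p = 0.0858), with 3 tested probes that ran from 0 to 0.22. Cxcr5, the chemokine receptor of follicular helper T cells, had 0.18 (limma adjusted p = 0.0715), and without replicate 5 it had 0.21 and was called higher (limma adjusted p = 0.025).

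**Figure D4:**
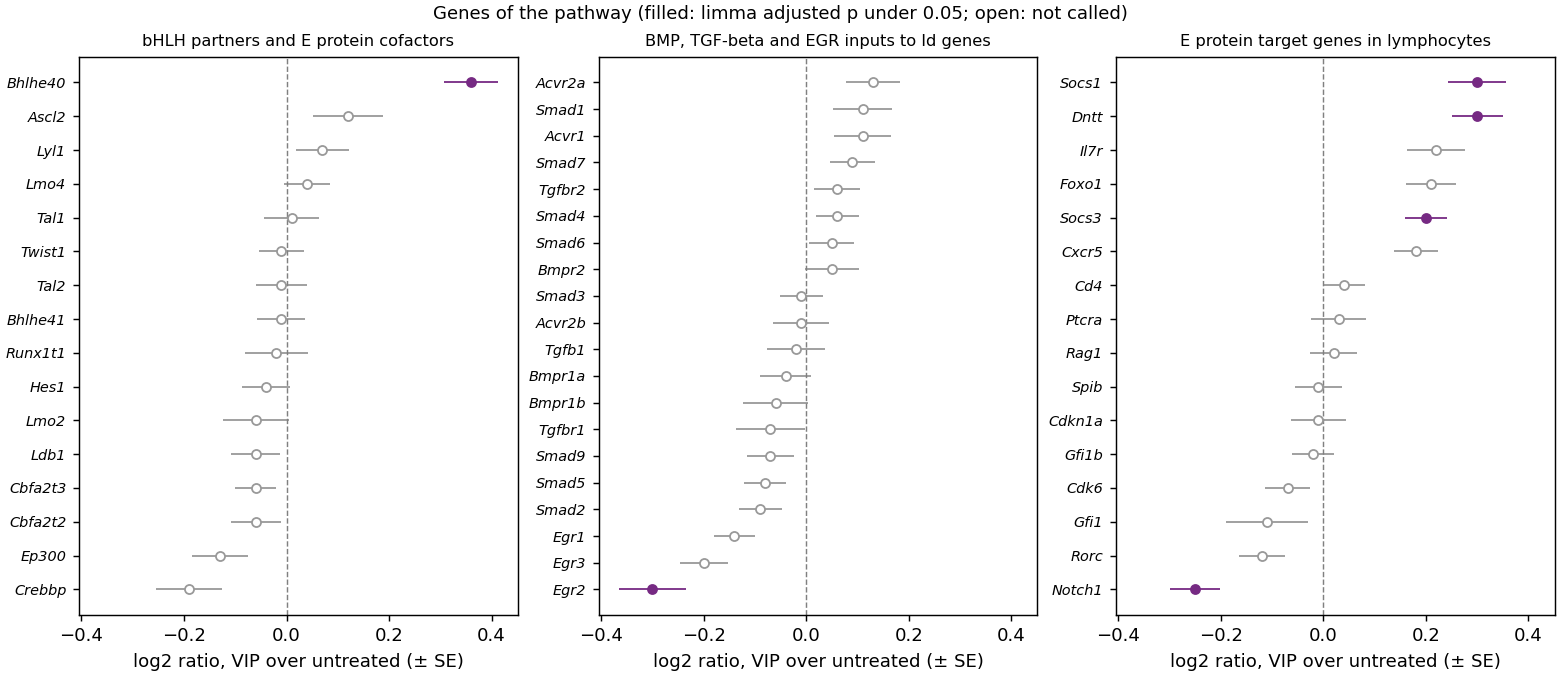
Log2 ratio of VIP over untreated with its SE (horizontal axes) for each tested gene (rows) of 3 lists, by its brightest tested probe; filled purple points were called (limma adjusted p under 0.05) and open grey points were not. The called genes are Bhlhe40, Socs1, Dntt and Socs3 on the higher side and Egr2 and Notch1 on the lower side.

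Markers of other cells were read beside these results, each by its brightest tested probe. Over all genes counted in this way, 2.15% were called in either direction. None of 8 B cell markers was called (median log2 ratio 0.03). Their summed intensity ran from 7064 to 17246 on the arrays of VIP-treated cells, against 6623 to 18110 in untreated cells, and 6 of the 8 were well above background on 6 of 6 arrays in both channels. Pax5 was so on 3 arrays in each group. None of 6 plasmacytoid dendritic cell markers was called with 6 arrays (median 0.06), and 5 of the 6 were well above background on 6 of 6 arrays in both channels. Siglech was so on 4 arrays in VIP-treated cells and on 3 in untreated cells. Without replicate 5, Ly6c2 was called higher (log2 ratio 0.24, limma adjusted p = 0.021). None of 6 CD8 T and NK cell markers was called (median 0.03), with summed intensities from 6317 to 10646 in VIP-treated cells, against 6056 to 9556 in untreated cells.

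Of 7 monocyte and macrophage markers, 1 was called, and of 8 CD4 T cell markers 1, beside 2.15% of all genes. For Cd14 the log2 ratio was 0.57 ± 0.069 (SE over 5 arrays, limma adjusted p = 0.0029), as large as that of Id2. Cd14 had no value on replicate 5, so this ratio already left that array out. Its call was kept whichever array was left out (0.50 to 0.62, limma adjusted p up to 0.0454). The median of the 7 was 0.04, their summed intensity ran from 10054 to 23157 in VIP-treated cells, against 8064 to 22884 in untreated cells. Of the 7, 5 (Cd14, Lyz2, Csf1r, Adgre1 and Cd68) were well above background on 6 of 6 arrays in both channels, while Itgam was so on 3 arrays in VIP-treated cells and on 4 in untreated cells. Among 8 CD4 T cell markers, with a median of 0.05 and 6 above 0, Cd2 was called higher (0.22 ± 0.039, limma adjusted p = 0.0167). This call was lost without replicate 1, 2, 3, 4 or 6 and kept without replicate 5 (0.22). Cd4 had 0.04, and 0.12 on its other probe. Thy1 was not called (0.18, limma adjusted p = 0.242), but its other probe had 0.42. Whether other cells had a part in the Id ratios was not tested. In these bulk samples fewer cells of a type and less RNA per cell cannot be told apart. The 3 arrays with VIP in Cy5 all sat at position 2 of their slide and the 3 with VIP in Cy3 at position 4. An effect of position on the ratio of red over green and an effect of VIP therefore cannot be told apart.

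Among 14016 genes with a current symbol and values on all arrays, those whose 6 dye-adjusted log2 ratios were nearest to those of Id2, by root mean square difference, were Ctla2a (0.054), Gls2 (0.071), Emb (0.089), Odc1 (0.097) and Pak1 (0.097). Ctla2a encodes a cysteine protease inhibitor, Gls2 a mitochondrial glutaminase, Emb the membrane protein embigin, Odc1 the first enzyme of polyamine synthesis and Pak1 a kinase downstream of Rac and Cdc42. Their fitted log2 ratios lay between 0.51 and 0.61. Nearest to Id1 were Crip1 (0.078), Avpi1 (0.12), Ifngr2 (0.12), Mrtfa (0.14) and Csrp1 (0.14), with fitted log2 ratios between 0.34 and 0.44. Crip1 and Csrp1 encode LIM-domain proteins, Ifngr2 a chain of the interferon-gamma receptor and Mrtfa a coactivator of serum response factor. The Crip1 values ran from 0.11 to 0.63 over the arrays, beside 0.07 to 0.61 for Id1.

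**Figure D5:**
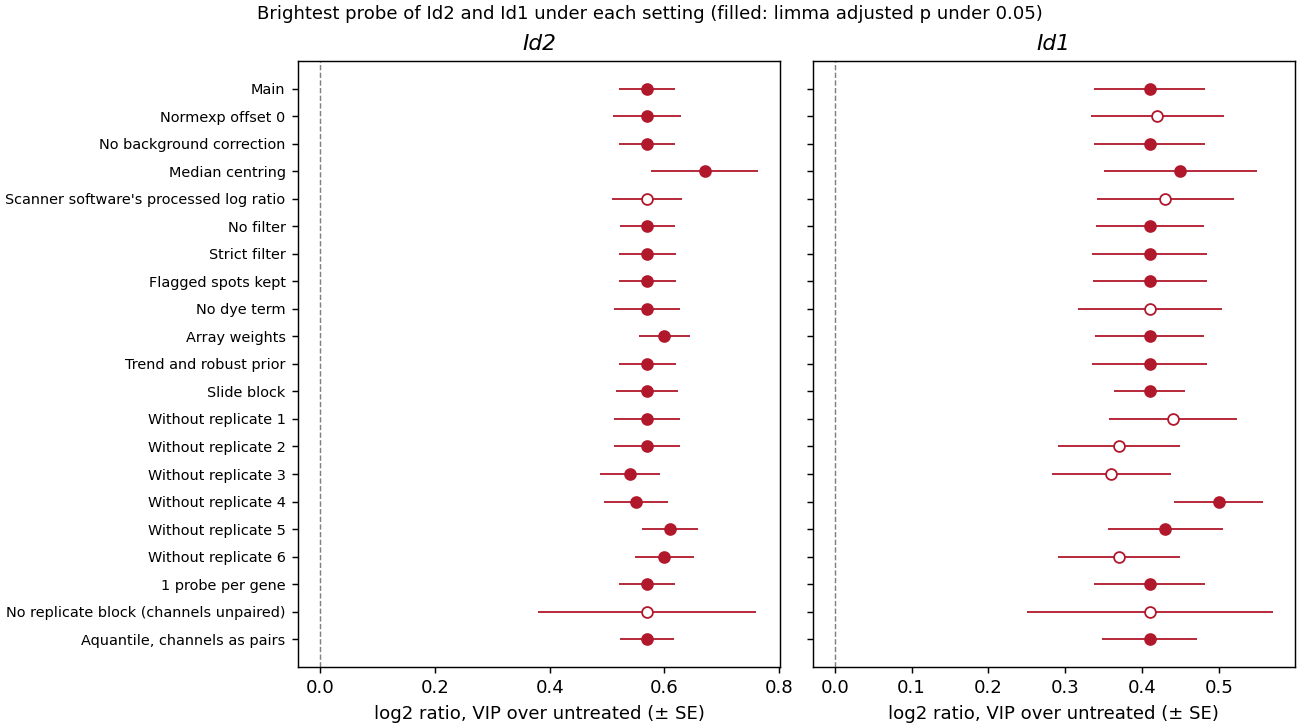
Log2 ratio of VIP over untreated with its SE (horizontal axes) for the brightest probe of Id2 (left) and of Id1 (right) under each processing setting (rows); filled points were called (limma adjusted p under 0.05) and open points were not. Id2 stays between 0.54 and 0.67 and is open in 2 rows, Id1 stays between 0.36 and 0.50 and is open in 8 rows.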

How the data were processed

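Per the labels' protocols, total RNA of splenic CD4 T cells was hybridised to 6 dual-colour Agilent arrays. Per the file headers, the deposited spot intensity, background and flags came from Agilent Feature Extraction 9.5.1.1. The authors' value table holds log10 ratios, equal within 4.5e-06 to the scanner files' log10 ratio turned to VIP over untreated, with column medians of 0 on 5 arrays and -0.00022 on replicate 3, and was an alternative.

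In limma 3.58.1 (R 4.3.3), mean signal was corrected by normexp (offset 50) and loess within arrays. The 1639 control spots and spots with outlier flags were left out, and spots of a probe averaged. Probes well above background on at least 3 arrays in either channel were tested. The model of the log2 ratios held an intercept for the dye and a term for VIP, and p-values were adjusted by Benjamini-Hochberg over all 33233 probes tested. Dye-adjusted ratios have the fitted dye effect of the probe removed. Channel intensities were scaled by Aquantile for display. The slide, with both orientations on each of 3, was tried as a block.

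Per the labels each array holds both RNAs of one replicate, so the ratio was taken as the paired value. The intraspot correlation of both channels was 0.942. Sex-linked transcripts differed between the channels of replicate 5, so the pairing of this array rests on the labels alone.

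Probes were named through RefSeq accession, then symbol or synonym. Named genes were all member probes, every called gene of each further list and otherwise the 3 with the smallest p, and the 5 genes nearest to each called Id gene. Members, lists and tests were chosen with earlier results of these data known.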

Additional observations from a re-analysis of the deposited data

How the results depend on the processing

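No log2 ratio of an Id1 or Id2 probe changed direction in any setting tried. The number of probes called higher, 535, was 108 with a normexp offset of 0, 173 with median centring, 38 with the scanner software's own log ratio and 227 without the dye term, and 243 to 839 with 1 replicate left out. The number called lower, 178, was 9, 9, 0 and 48 in those 4 settings, 348 with array weights, 331 with quantile scaling between arrays and the channels fitted as pairs over 27716 probes, and 47 to 348 with 1 replicate left out. At the extremes, 243 and 47 were the counts without replicate 1, and 839 and 348 those without replicate 5. With offset 0, 92.3% of the calls were higher, and without the dye term 82.5%.

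Of the 4 Id probes called higher, 1 was called with offset 0, 0 with the scanner log ratio, 2 without the dye term, and 2 to 4 with 1 replicate left out, with 2 without replicate 1, 2, 3 or 6. With 1 probe per gene the count was 2 by construction. The number of E protein probes called lower was 0 to 1 with 1 replicate left out, with 1 without replicate 5. With no replicate block, that is with the pairing of both channels removed, 1 probe was called higher and 0 lower over all probes, and 0 Id probes were called. The Id minus E protein difference was 0.51 when only probes well above background in both channels of all arrays were kept, which leaves Id4 out, and 0.45 with slide as a block, where Id3 could not be fitted. For the other shifts the cause was not tested. Ratios of dim probes such as Id4 are limited by signal over background.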

Other observations

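A pair of probes that the files name A130037E08Rik, from a cDNA clone, match Tcf12 through a RefSeq synonym only and were kept out of the E protein counts. They lie on chromosome 9 at 71955835 to 71955894 and 71955079 to 71955138 (mm9), upstream of the other Tcf12 probes on the minus strand. Their log2 ratios of VIP over untreated were 0.13 ± 0.052 (SE, n = 5 arrays, limma adjusted p = 0.33) and 0.07 ± 0.048 (SE, n = 5 arrays, limma adjusted p = 0.627). The brightest Tcf12 probe, nearer the end of the gene, had -0.16. The difference between these probes was not tested.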
